A study of Mus musculus with 13 samples.

Results

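The alpha1 subunit of a voltage-gated calcium channel is the protein that forms the pore and senses the membrane potential, and each is made by its own gene. Genes were taken by symbol: Cacna1a, Cacna1b, Cacna1c, Cacna1d, Cacna1e, Cacna1g, Cacna1h and Cacna1i, 8 of the 22667 genes of the deposited expression table. All their entries in the deposited splicing table were taken too, 452 of 283765, or 434 once repeated entries of alternative splice sites were left out. These were 83 exons, 6 microexons of at most 27 nt, 21 alternative acceptor sites, 8 alternative donor sites and 316 introns. All 8 genes passed the filter on low expression.

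The 13 libraries are RNA-seq of total RNA from mouse cerebella, all on the C57BL/6 background. Wild type has 2 libraries from postnatal day 1 (P1), 2 from P10 and 3 from P30. Cerebella lacking Sam68 (genotype Sam68 ko in the labels) have 3 libraries at P1 and 3 at P10, and a P30 knockout was not analysed here. Sam68, encoded by Khdrbs1, is an RNA-binding protein that regulates alternative splicing, and the series asks what it does to splicing in the developing cerebellum. The labels do not say whether a library is 1 animal or a pool, nor which part of Khdrbs1 the allele removes, so p-values measure the spread between these libraries, which may be technical.

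Calcium entering through these channels triggers transmitter release, shapes firing and drives calcium-dependent transcription. Cacna1a encodes Cav2.1, the P/Q-type channel that dominates in Purkinje cells and at many cerebellar terminals, and mutations in it cause ataxia. The others are Cacna1b (Cav2.2, N-type), Cacna1e (Cav2.3, R-type), the L-type genes Cacna1c (Cav1.2) and Cacna1d (Cav1.3), and the low-voltage-activated T-type genes Cacna1g, Cacna1h and Cacna1i (Cav3.1 to Cav3.3). Their transcripts are heavily spliced, and several carry pairs of neighbouring exons of equal length of which a transcript normally uses 1.

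The sequences below are those of exons and splice site extensions whose use differed widely between ages, with the partner of each paired exon and a Cacna1b pair for comparison. They were read from the GENCODE M21 transcripts (GRCm38) by matching exon and intron lengths within the gene, and their positions are those of the deposited table (mm9). First come the paired 97 nt exons that encode an EF-hand-like part of the C terminus in Cacna1a, Cacna1e and Cacna1b. Capitals mark the bases that differ from the other exon of the same pair in an ungapped comparison.
Cacna1a upstream exon, chr8:87138594-87138690, plus strand: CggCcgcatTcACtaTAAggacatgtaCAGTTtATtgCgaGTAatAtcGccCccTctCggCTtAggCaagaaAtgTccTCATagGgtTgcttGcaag
Cacna1a downstream exon, chr8:87139473-87139569, plus strand: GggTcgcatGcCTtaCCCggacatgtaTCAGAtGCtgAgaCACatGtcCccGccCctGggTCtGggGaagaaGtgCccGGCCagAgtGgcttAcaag
Cacna1e upstream exon, chr1:156265080-156265176, minus strand: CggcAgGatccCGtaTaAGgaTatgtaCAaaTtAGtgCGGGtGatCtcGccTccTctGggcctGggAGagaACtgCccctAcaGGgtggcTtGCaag
Cacna1e downstream exon, chr1:156263191-156263287, minus strand: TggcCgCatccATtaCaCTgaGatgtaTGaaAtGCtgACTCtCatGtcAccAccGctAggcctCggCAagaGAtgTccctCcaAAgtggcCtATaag
Cacna1b upstream exon, chr2:24482343-24482439, minus strand: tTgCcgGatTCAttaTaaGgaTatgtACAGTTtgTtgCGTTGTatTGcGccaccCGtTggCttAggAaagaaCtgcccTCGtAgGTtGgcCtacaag
Cacna1b downstream exon, chr2:24480758-24480854, minus strand: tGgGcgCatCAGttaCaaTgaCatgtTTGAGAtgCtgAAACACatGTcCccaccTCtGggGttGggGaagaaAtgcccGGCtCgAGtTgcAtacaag
Within a pair, 60 of 97 bases were identical in Cacna1a (61.9%), 61 in Cacna1e (62.9%) and 57 in Cacna1b (58.8%). Across genes the upstream exons were closer to each other than to their own partners: 75.3% of bases were identical between Cacna1a and Cacna1e, 75.3% between Cacna1a and Cacna1b and 69.1% between Cacna1e and Cacna1b. Among the downstream exons the same values were 72.2%, 79.4% and 72.2%. A length of 97 nt is not a multiple of 3, so using both exons of a pair, or neither, shifts the reading frame.

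The next segments are used alone and have lengths that are multiples of 3. In Cacna1g they are an exon whose last 21 nt, in capitals, are added by a second donor site, then a 54 nt exon and, nearer the 5′ end, a 69 nt exon. The extension and the 54 nt exon lie in the linker between domains III and IV, and the 69 nt exon lies between domains II and III.
Cacna1g exon with donor extension, chr11:94287078-94287291, minus strand: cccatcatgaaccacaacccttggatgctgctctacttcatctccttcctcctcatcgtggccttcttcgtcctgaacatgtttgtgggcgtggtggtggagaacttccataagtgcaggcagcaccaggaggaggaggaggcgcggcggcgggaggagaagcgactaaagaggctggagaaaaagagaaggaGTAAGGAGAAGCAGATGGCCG
Cacna1g 54 nt exon, chr11:94284985-94285038, minus strand: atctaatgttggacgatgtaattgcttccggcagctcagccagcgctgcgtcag
Cacna1g 69 nt exon, chr11:94301023-94301091, minus strand: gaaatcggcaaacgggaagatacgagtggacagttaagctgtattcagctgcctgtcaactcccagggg
Cacna1a 36 nt exon, chr8:87159448-87159483, plus strand: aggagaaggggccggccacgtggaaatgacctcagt
Cacna1d 60 nt exon, chr14:30942975-30943034, minus strand: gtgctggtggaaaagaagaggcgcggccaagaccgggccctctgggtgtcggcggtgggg
Cacna1e 129 nt exon, chr1:156252015-156252143, minus strand: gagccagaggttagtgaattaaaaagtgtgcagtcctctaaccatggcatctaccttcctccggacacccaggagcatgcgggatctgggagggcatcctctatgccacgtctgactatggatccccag
Cacna1e 57 nt exon, chr1:156320987-156321043, minus strand: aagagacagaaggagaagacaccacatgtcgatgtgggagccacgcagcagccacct
The Cacna1a 36 nt exon is centred at 87.0% of a coding sequence of 7104 nt and the Cacna1e 129 nt exon at 85.6% of 6762 nt, both in the part that encodes the C-terminal tail. The Cacna1d 60 nt exon is centred at 23.1% of 6537 nt, in the loop between domains I and II.

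Expression is given as cRPKM, the RPKM of a gene corrected for how much of its transcript can be mapped uniquely, so levels can be compared between genes per length. The reads behind these values, worked out from the steps in which the values move, came to about 94400 to 3863500 per library. In the shallowest, knockout P1 library 15, 1 read on a transcript of 8 kb is worth 1.32 cRPKM, and it lists Cacna1i at 0. The reads over exon junctions in the splicing table are deeper, 7827830 to 13662315 per library over simple exons, and gave a second measure of each gene, per total junction reads and not per length. Khdrbs1 was 29.5 to 74.4 cRPKM in the wild-type libraries and 1.28 to 8.50 in the knockout libraries, so each library fits its genotype label. Of the forebrain markers, Emx1 was at 0 in all 13 libraries and Tbr1 at 0 to 1.55 cRPKM. Neurod6 was present in every library, at 17.4 to 42.1 cRPKM in the P1 and P10 libraries and 4.07 to 4.69 at P30, and its part in the results was not tested. Wild-type P1 library 8 stood apart from library 9 in its granule cell precursor markers, which summed to 87.4 against 187.2 cRPKM over 6 genes, and in its midbrain and caudal hindbrain markers, 38.9 against 14.1 over 10 genes.

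At P1 the N-type gene Cacna1b was the most abundant of the family in wild type and at P30 the P/Q-type gene Cacna1a was. Wild-type P1 libraries had Cacna1b at 26.0 ± 1.78 cRPKM (SD, n = 2), then Cacna1a, Cacna1g, Cacna1e, Cacna1c, Cacna1h, Cacna1d and Cacna1i at 2.43 ± 0.240. Only Cacna1g and Cacna1e overlapped among neighbours in that order. By P30 the order was Cacna1a at 78.5 ± 7.87 (SD, n = 3), Cacna1g at 39.4 ± 6.37 and Cacna1e at 25.7 ± 8.41. Cacna1a stood clear, whereas the lowest Cacna1g library, 35.26, overlapped the highest Cacna1e library, 35.3. Cacna1b, Cacna1c, Cacna1d and Cacna1i followed within 7.08 to 11.7 with overlapping libraries. Cacna1h was last at 0.457 ± 0.175. Cacna1f and Cacna1s, the alpha1 genes of retina and skeletal muscle, had means of at most 0.160 cRPKM in every group.

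As a share of the summed cRPKM of the 8 genes, Cacna1a made up 17.7% and 21.7% in the wild-type P1 libraries, 27.6% and 28.6% at P10 and 42.3% to 44.9% at P30. The share of Cacna1b was 26.2% and 26.5%, then 11.1% and 12.03%, then 4.93% to 6.03%. Cacna1h gave 7.13% and 8.25% at P1 and at most 0.72% in the later wild-type libraries. The sum itself was 93.4 and 104.2 at P1, 159.2 and 189.5 at P10 and 161.3 to 193.8 at P30, so most of the increase in the sum was present at P10.

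**Figure D1:**
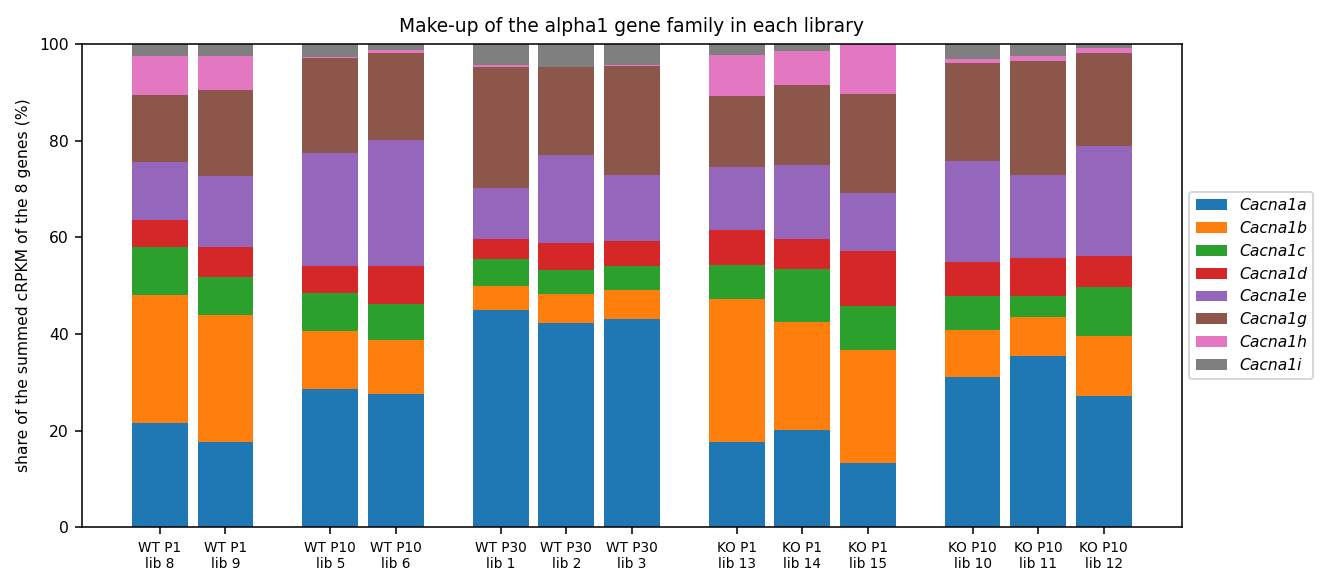
Share of the summed cRPKM of the 8 alpha1 genes (vertical axis, %) in each of the 13 libraries (horizontal axis, grouped by genotype and age). The Cacna1a share is 17.7% and 21.7% in wild-type P1 and 42.3% to 44.9% at P30, and the Cacna1h share is at most 1.15% after P1.

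Cacna1a, the P/Q-type gene, was at 20.2 and 18.4 cRPKM in the youngest wild-type libraries (P1), 54.18 and 43.97 at P10, and 83.98, 81.95 and 69.4 at P30. The 3 ages did not overlap. The R-type gene Cacna1e read 11.2 and 15.4, then 44.4 and 41.6, then 19.8, 35.3 and 21.9, so the highest libraries were those of P10. Cacna1g, a T-type gene strong in Purkinje cells and cerebellar nuclei, read 12.9 and 18.4, then 37.4 and 28.4, then 46.8, 35.3 and 36.3. Here P1 lay below both later ages, which overlapped. The second T-type gene, Cacna1h, read 7.71 and 7.43 at P1, 0.36 and 1.14 at P10, and 0.63, 0.28 and 0.46 at P30. The third, Cacna1i, read 2.26 and 2.60, then 4.99 and 2.00, then 8.28, 9.15 and 7.08, highest at P30 without overlap.

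Between P1 and P10 in wild type, 3 of the 8 genes rose and 1 fell at adjusted p below 0.05 in limma, where 4.05% of 14063 genes passed, 2.2% higher and 1.85% lower. Cacna1e rose by 1.64 ± 0.294 (SE) on the log2(cRPKM + 1) scale (adjusted p = 0.00802), Cacna1a by 1.29 ± 0.210 (0.00467) and Cacna1g by 1.035 ± 0.260 (0.0468, limma). Cacna1h fell by 2.33 ± 0.366 on that scale (adjusted p = 0.0038, limma), and since its later values lie near the added 1, this understates its change. Cacna1d differed by 0.85 ± 0.315 with adjusted p = 0.19, and Cacna1b, Cacna1c and Cacna1i were closer to 0. The median log2 change of the 8 was 0.714, against 0.008 over all genes tested. Cacna1g lost its call when any 1 of the 4 libraries was left out (adjusted p = 0.0527 to 0.324) and with a pseudocount of 0.1 (0.0549) or no filter (0.0764). Cacna1e lost its call without wild-type P1 library 8 (adjusted p = 0.102), and Cacna1e and Cacna1a without P10 library 5 (0.0792 and 0.0552, limma). The counts rest on few libraries, for the 8 genes as for all genes. Without P1 library 8, 2 of 8 were called and 200 of all genes, beside 569 with every library. Without P10 library 5 these were 1 and 216, and with only these 4 libraries fitted 0 and 0.

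Between P10 and P30, Cacna1a rose by a further 0.67 ± 0.192 log2 units (adjusted p = 0.0351) and Cacna1b fell by 0.92 ± 0.232 (0.0195, limma), so 2 of 8 were called where 14.7% of genes passed, 5.02% higher and 9.73% lower. Cacna1b read 24.7 and 27.3 cRPKM at P1, 22.8 and 17.7 at P10 and 9.22, 11.7 and 9.73 at P30, so P30 lay below both earlier ages. Cacna1e differed by -0.77 ± 0.269 (adjusted p = 0.0797) and Cacna1i by 1.11 ± 0.501 (0.176, limma). The median of all genes lay at -0.134 here and at -0.133 between P1 and P30, and at -0.016 and -0.006 after quantile normalization. That scaling changed the share of calls that were higher from 34% to 46.2% for P30 against P10 and left 3 of 8 genes called. Cacna1a lost its call when any 1 of these 5 libraries was left out (adjusted p = 0.0533 to 0.211), and Cacna1b without P10 library 5, P30 library 1 or P30 library 3 (0.0651 to 0.151), which left 0 members called, and 1 without P10 library 6. Over all genes these 4 fits called 1199 to 1318, beside 2074 with every library.

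Over the whole interval from P1 to P30, Cacna1a rose by 1.96 ± 0.192 log2 units (3.9-fold, adjusted p = 1.67e-05), Cacna1g by 1.29 ± 0.238 (0.00162) and Cacna1e by 0.87 ± 0.269 (0.0321, limma). Cacna1h fell by 2.56 ± 0.334 (adjusted p = 0.00014) and Cacna1b by 1.27 ± 0.232 (0.00151, limma). These are 5 of 8 genes where 25.4% of all genes passed, 9.66% higher and 15.8% lower. Cacna1i missed the threshold at 1.41 ± 0.501 (adjusted p = 0.0577, limma). Cacna1c read 8.20 to 14.9 cRPKM and Cacna1d 5.30 to 12.4 over all wild-type libraries, and neither was called between any ages. Cacna1e is the call that is easily lost: its adjusted p was 0.23 without wild-type P1 library 8, 0.0558 without P1 library 9, 0.119 without P30 library 2 and 0.0506 without P30 library 3.

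The 3 wild-type comparisons share libraries and are not independent of one another. Measured by junction reads scaled to each library's total, 6 of 8 genes were called between P1 and P10 (23.7% of genes by that measure), 7 between P10 and P30 (44.2%) and 7 between P1 and P30 (57.8%), and each call made from cRPKM was also made there in the same direction. By this measure Cacna1d rose by 1.11 ± 0.199 log2 units from P1 to P10 (adjusted p = 0.000696) and fell by 0.60 ± 0.182 from P10 to P30 (0.0136), and Cacna1i rose by 1.17 ± 0.265 from P10 to P30 (0.00203, limma). Cacna1h fell by 3.62 ± 0.216 from P1 to P30 (adjusted p = 8.77e-10, limma), from 495 and 614 junction reads to 55, 33 and 43.

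**Figure D2:**
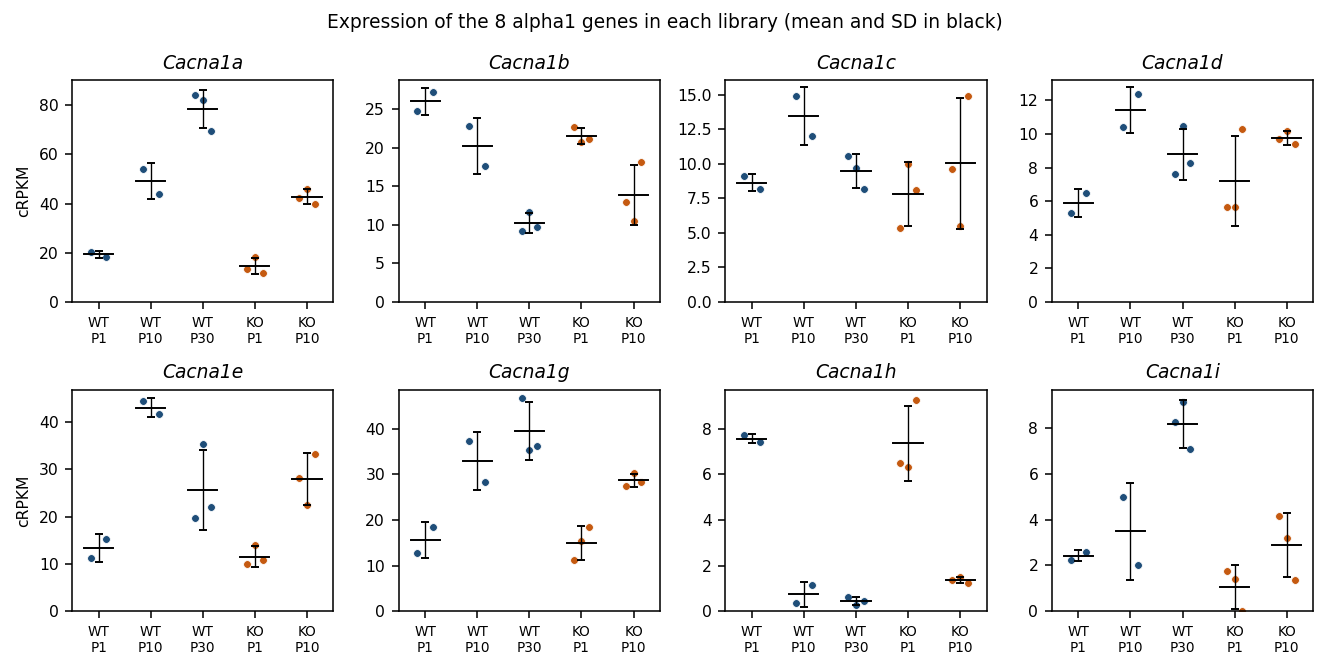
cRPKM (vertical axis, from 0) of each alpha1 gene by group (horizontal axis); points are libraries, black bars the mean and SD, blue wild type and orange Sam68 knockout. Cacna1a climbs from 18.4 and 20.2 at P1 to 69.44 to 83.98 at P30, Cacna1b and Cacna1h go the other way, and Cacna1e is highest at P10.

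Markers of several cell types rose or fell over the same ages. Purkinje cell markers (7 genes) summed to 219.2 and 333.6 cRPKM in wild-type P1 and 1592 to 1937 at P30, mature granule cell markers (6 genes) to 56.9 and 116.7 and then 1283 to 1413, and oligodendrocyte markers (7 genes) to 99.6 and 115.0 and then 3388 to 4219. Granule cell precursor markers summed to 87.4 and 187.2 and then 7.11 to 9.51. In bulk RNA a change in the number of cells of a type cannot be told apart from a change in RNA per cell, and the part of these shifts in the values above was not tested. The genes whose log2 expression ran most alike over the 13 libraries were, for Cacna1a, D6Wsu116e (Pearson r = 0.993), Atp2a3 (0.989), which encodes a calcium pump of the endoplasmic reticulum, and Lynx1 (0.986). For Cacna1h they were Nefl (0.980), a neurofilament gene, Smoc1 (0.977) and Grb10 (0.973). For Cacna1g they were Lcat (0.973), Klf9 (0.972) and Arap2 (0.964), for Cacna1e Zbtb20 (0.965), Srcin1 (0.959) and St18 (0.940), and for Cacna1b Slc7a1 (0.955), Tnfaip1 (0.954) and Ss18l1 (0.953). For Cacna1i they were Rnf19b (0.974), Osbpl6 (0.967) and Car2 (0.961), for Cacna1d Mphosph9 (0.943), Btbd17 (0.928) and Gcfc1 (0.919), and for Cacna1c Ptpdc1 (0.878), Fam123a (0.873) and Lrp6 (0.861). These points share libraries and ages, and the values are descriptions. Between members, r was 0.924 for Cacna1a with Cacna1g and -0.962 for Cacna1a with Cacna1h.

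Among the auxiliary subunits that traffic and gate alpha1, some rose and some fell, and the counts of this and the next paragraph from P1 to P30 stand beside the 25.4% of all genes called. Of the 4 beta subunit genes, Cacnb4, the form known from cerebellum and mutated in the lethargic mouse, rose from 5.02 ± 0.665 cRPKM at wild-type P1 (SD, n = 2) to 20.8 ± 1.41 at P10 and 52.0 ± 3.74 at P30 (n = 3). Its P1 to P30 rise was 3.14 ± 0.240 log2 units (adjusted p = 2.55e-06, limma). Cacnb1 fell by 1.525 ± 0.270 (adjusted p = 0.00127, limma), and the other 2 were not called. Of 8 gamma subunit and TARP genes, 6 were tested: Cacng7 rose by 1.11 ± 0.192 and Cacng4 fell by 2.72 ± 0.222 (adjusted p = 0.00106 and 4.19e-06, limma), and the other 4 were not called. None of the 3 tested alpha2delta genes was called between P1 and P30, and Cacna2d1 fell by 0.90 ± 0.272 between P10 and P30 (adjusted p = 0.0434, limma). Of 10 active zone partners, 6 rose and 2 fell between P1 and P30, where 9.66% of all genes rose and 15.8% fell: Rims2 rose by 1.55 ± 0.243 and Unc13c by 1.78 ± 0.313, and Erc2 fell by 2.34 ± 0.253 (adjusted p = 0.000537, 0.00121 and 3.48e-05, limma). Rims3 fell by 1.51 ± 0.226 to P10 and then rose by 2.39 ± 0.207 to P30 (adjusted p = 0.00277 and 1.71e-05, limma). None of 5 tested RGK GTPase and STAC genes, which limit or stabilise the channels, was called at any age.

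Of the 4 calcium-activated potassium channel genes, which couple calcium entry to firing, Kcnma1 rose from P1 to P30 by 1.20 ± 0.324 and Kcnn3 fell by 1.74 ± 0.541 (adjusted p = 0.0165 and 0.0334, limma). All 7 splicing regulators with earlier calcium channel studies were called between P1 and P30, beside 25.4% of all genes: Rbfox1 and Rbfox3 rose, by 1.44 ± 0.335 and 2.14 ± 0.197, and Ptbp1, Ptbp2, Nova1, Nova2 and Rbfox2 fell, Ptbp1 by 1.79 ± 0.186 (adjusted p = 0.00729, 1.09e-05 and 2.7e-05, limma). Rbfox3 had already risen by 1.87 ± 0.216 at P10 (adjusted p = 0.000559, limma), and Ptbp1 fell between P10 and P30. Khdrbs1, Khdrbs2 and Khdrbs3 all fell between P1 and P30, Khdrbs3 by 2.15 ± 0.248 (adjusted p = 5.64e-05, limma). No link between these genes and the exons below was tested.

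Percent spliced in (PSI) is the share of transcripts that carry a segment, as the authors deposited it, and the test was made on the log2 odds of inclusion from the reads for and against. An entry was tested where at least 2 libraries of each compared group had 10 reads or more and its mean PSI was 5 to 95. Of the 434 entries, 80 were tested in at least 1 comparison, 29 of them introns. Of these, 23 (28.7%) were called in at least 1 comparison at adjusted p below 0.05 with 10 points of PSI, beside 3876 of 42422 entries over all genes (9.14%): 8 in Cacna1a, 5 in Cacna1g, 4 in Cacna1e, 3 in Cacna1c, 2 in Cacna1d and 1 in Cacna1b. None of the 8 tested events of Cacna1h or 3 of Cacna1i was called. Of the Cacna1h events, only a 134 nt and an 18 nt exon had enough reads at P30 to be compared with that age. The smallest p in Cacna1h was for a 292 nt intron and in Cacna1i for a 40 nt acceptor extension, which read 80.0% to 97.3% over the libraries. All 18 called exons and splice sites and 5 called introns came from comparisons between ages.

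Cacna1g changed its use of segments in the domain III to IV linker. The 54 nt exon was included at 86.6% and 78.3% in wild-type P1, 30.6% and 31.3% at P10, and 1.65%, 3.24% and 2.43% at P30, on 195 to 741 reads. The 21 nt extension ran the other way, at 14.04% and 7.35%, then 64.9% and 66.9%, then 96.4%, 95.7% and 94.96%. No library of 1 age reached the range of another for either segment. Whether the 54 nt exon and the extension lie on the same transcripts was not tested. From P1 to P30 the 54 nt exon fell by 80.0 points (log2 odds -7.58 ± 0.351 SE, adjusted p = 8.34e-08) and the extension rose by 85.02 points (7.49 ± 0.526, adjusted p = 1.57e-06, limma). Each was also called between P1 and P10 and between P10 and P30, except that without wild-type P10 library 5 the first call of the extension was lost (adjusted p = 0.0608). The 69 nt exon of the II to III linker went from 80.2% and 75.6% through 46.8% and 49.6% to 7.14%, 18.6% and 11.5%, a fall of 65.5 points from P1 to P30 (adjusted p = 5.03e-06, limma). A 51 nt acceptor extension rose by 10.9 points over the same time (adjusted p = 0.00941, limma). The 10.9 points became 9.58, with adjusted p = 0.0798, without wild-type P1 library 9.

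In Cacna1a the upstream exon of the 97 nt pair rose with age and the downstream exon fell. The upstream exon was at 12.8% and 8.21% in wild-type P1, 55.7% and 42.5% at P10 and 92.2%, 90.9% and 89.6% at P30, on 101 to 1900 reads. Its downstream partner was at 72.3% and 62.5%, 41.5% and 50.4%, then 7.96%, 9.48% and 10.4%. Neither exon had overlapping ages. At wild-type P1 the PSIs of the pair did not account for all transcripts, so the values cannot be read as a full exchange. The upstream exon rose by 80.3 points from P1 to P30 (log2 odds 6.40 ± 0.395, adjusted p = 5.5e-07) and the downstream exon fell by 58.1 (-4.34 ± 0.301, adjusted p = 1.48e-06, limma). The pair is read partly from the same junctions, so these are not separate observations. The 36 nt exon of the C-terminal tail moved as far: 10.4% and 13.2% at P1, 56.5% and 56.6% at P10, and 95.8%, 94.6% and 94.95% at P30, a rise of 83.3 points (7.16 ± 0.281, adjusted p = 1.43e-08, limma). It was called between each pair of ages, as was the upstream 97 nt exon, whose P1 to P10 call was lost without wild-type P10 library 5 (adjusted p = 0.0878, limma).

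Cacna1a also holds 2 tested microexons. The 6 nt microexon (chr8:87121379-87121384) was included at 17.6% and 14.8% in wild-type P1, 27.2% and 26.1% at P10, and 50.7%, 58.9% and 56.2% at P30, on 308 to 2462 reads. It rose by 39.1 points from P1 to P30 (adjusted p = 8.24e-05, limma), and 28.6 of these points came after P10 (adjusted p = 0.00487, and 0.0656 without P10 library 6, limma). The 12 nt microexon (chr8:87100182-87100193) read 42.3% and 28.3%, then 12.2% and 10.1%, then 18.3%, 13.9% and 13.5%, a fall of 20.1 points from P1 to P30 (adjusted p = 0.04, limma). Without wild-type P1 library 8 that difference was -13.1 points with adjusted p = 0.306, and the call was also lost without P1 library 9, P30 library 2 or P30 library 3 (0.0582 to 0.115, limma). No sequence was matched to either.

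The corresponding exon pairs of the other Cav2 genes are given next, and differences between genes were not tested. In Cacna1e the upstream 97 nt exon read 8.88% and 18.8% in wild-type P1, 21.03% and 20.2% at P10, and 80.1%, 67.2% and 70.6% at P30, on 25 to 131 reads. P30 stood clear of both earlier ages, and the rise from P10 was 52.1 points (adjusted p = 0.00712, limma), whereas that from P1 to P10 was 6.76 points (0.779). Without P10 library 5 or 6 the adjusted p of the later rise was 0.0565 or 0.0879. The deposited PSI of the Cacna1e downstream exon was 81.4% to 97.5% in every library, so the PSIs of this pair do not add to 100 and the values cannot be read as a full exchange. In Cacna1b the upstream exon stayed at 0% to 6.06% in all 13 libraries, too low to be tested. The Cacna1b downstream exon read 76.4% and 77.9% at P1, 82.9% and 52.2% at P10 and 93.7%, 86.8% and 82.3% at P30, and was not called. A 138 nt exon of Cacna1b (chr2:24506601-24506738) was at 98.3% to 100% at P1, 88.6% and 87.3% at P10 and 97.9% to 100% at P30 in wild type. Its rise of 11.4 points from P10 to P30 (adjusted p = 0.0304, limma) lost its call when any of wild-type P10 libraries 5 and 6 and P30 libraries 1 and 3 was left out (adjusted p = 0.101 to 0.225).

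Cacna1e held an exon that fell and then rose. The 129 nt exon of the C-terminal tail was at 74.6% and 65.2% in wild-type P1, 39.5% and 25.8% at P10, and 81.99%, 84.9% and 84.3% at P30, on 117 to 712 reads. P10 lay below both other ages without overlap. It fell by 37.3 points from P1 to P10 (adjusted p = 0.0453) and rose by 51.1 points from P10 to P30 (adjusted p = 0.000602, limma). The 57 nt exon of the II to III loop had its highest values at P10, with 15.3% and 17.6%, then 61.8% and 38.6%, then 30.7%, 29.6% and 22.99%, and its wild-type difference of 33.8 points from P1 to P10 was not called (adjusted p = 0.138, limma). The first fall of the 129 nt exon was called with all 13 libraries and lost without any 1 of wild-type P1 libraries 8 and 9 and P10 libraries 5 and 6 (adjusted p = 0.0801 to 0.31) or with mean PSI from 1 to 99 allowed (0.16, limma). A 90 nt exon of the same gene had group means of 34.6% to 58.1% and was called in no comparison.

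Among the L-type genes, Cacna1d gained a 60 nt exon in the loop between domains I and II: 2.21% and 0.71% in wild-type P1, 11.4% and 13.6% at P10, and 68%, 61.4% and 68.2% at P30, on 24 to 170 reads. The ages did not overlap, and the rise from P10 to P30 was 53.4 points (log2 odds 3.72 ± 0.601, adjusted p = 0.00351, limma). The paired 104 nt exons of Cacna1d, which encode the sixth segment of domain I, were at 79.2% and 89.0% (upstream) and 18.6% and 21.6% (downstream) at wild-type P1, and at 61.8% and 68.9%, and 48.4% and 53.0%, at P10. Neither was called in wild type, with adjusted p = 0.263 for the downstream exon. The upstream 84 nt exon of Cacna1c, in the third segment of domain IV, fell from 34.0% and 45.2% at P1 to 14.2%, 17.8% and 12.98% at P30, by 24.6 points (adjusted p = 0.0147, limma). In the 60 nt pair of Cacna1c the upstream exon fell by 20.8 points from P1 to P30 (adjusted p = 0.00359) and the downstream exon rose by 16.1 (0.0175, limma), reaching 95.8% to 100%. Leaving out wild-type P1 library 9 removed all 3 of these P1 to P30 calls, with differences of -18.98, -12.98 and 15.38 points. Leaving out P30 library 3 removed those of the 84 nt exon and the downstream 60 nt exon (adjusted p = 0.0533 and 0.054, limma). Leaving out P1 library 8 removed that of the downstream 60 nt exon, at 16.84 points. The upstream 60 nt exon was also called between P10 and P30, with a fall of 12.5 points (adjusted p = 0.0353, limma). That call was lost without P30 library 1 or 3 (adjusted p = 0.0682 and 0.133, limma), and without P10 library 5 or 6, at -13.88 and -11.15 points. The first exon of the 104 nt pair of Cacna1c, which also encodes the sixth segment of domain I, had group means of 68.4% to 95.1%. The 84 nt pair of Cacna1d, in the third segment of domain IV, had group means of 17.6% to 42.8% and 65.6% to 94.9%. None of these was called in any comparison.

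**Figure D3:**
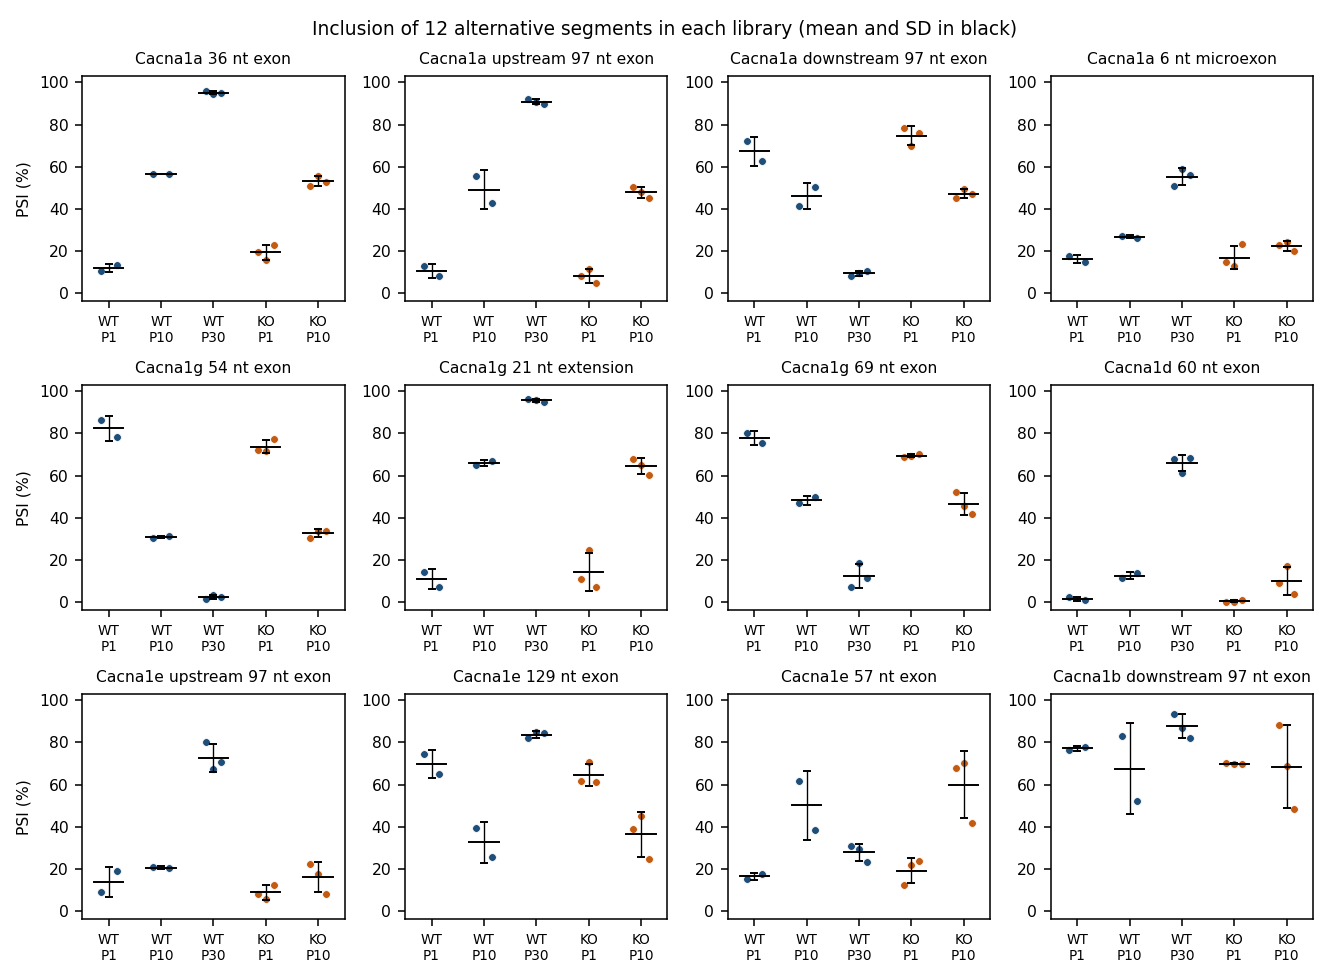
PSI (vertical axis, %) of 12 segments of Cacna1a, Cacna1g, Cacna1d, Cacna1e and Cacna1b by group (horizontal axis); points are libraries, black bars the mean and SD, blue wild type and orange Sam68 knockout. The Cacna1g 54 nt exon runs from 86.6% and 78.3% at wild-type P1 to 1.65% to 3.24% at P30, and the Cacna1e 129 nt exon dips at P10.

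The counts by comparison were as follows. Between wild-type P1 and P10, 3 of 74 tested events rose and 2 fell, where 0.647% of all events were called (0.356% higher and 0.291% lower). Between P10 and P30, 9 rose and 5 fell of 73 (2.94% of all events, 2.04% higher and 0.902% lower), and between P1 and P30, 9 rose and 9 fell of 70 (9.96%, with 6.11% higher and 3.89% lower). The median absolute difference of the member events from P1 to P30 was 8.67 points, against 5.42 over all events tested. Without wild-type P10 library 5 the first count was 2 and that over all genes 77, beside 238. Without P10 library 6 the second was 8 and that over all genes 366, beside 1107.

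All 5 called introns lie against the exons already described. The 2 Cacna1a introns of 2282 and 3000 nt border the upstream 97 nt exon, and the second of them contains the downstream exon. The 1785 nt intron of Cacna1a borders the 36 nt exon, the 4700 nt intron of Cacna1g borders the 54 nt exon, and the 3853 nt intron of Cacna1e contains the 129 nt exon. The 2282 nt intron read 50.0% and 70.7% in wild-type P1, 30.3% and 44.3% at P10 and 5.51%, 13.3% and 9.55% at P30, a fall of 50.9 points from P1 to P30 (adjusted p = 0.000274, limma). The 1785 nt intron fell by 44.8 points and the 3000 nt intron by 24.2 over the same time, and the Cacna1g intron rose by 40.3 (adjusted p = 0.00494, 0.00801 and 0.0117, limma). Without wild-type P1 library 8 the 1785 nt and Cacna1g introns were not called (adjusted p = 0.0811 and 0.123), and without P1 library 9 the 3000 nt intron was not (0.0935). The Cacna1e intron rose by 36.1 points from P10 to P30 (adjusted p = 0.0187), and was called without P30 library 1 but not without any other library of the compared groups (0.0538 to 0.165, limma). Retention of an intron and use of a neighbouring exon share a splice site, so these values were not taken as separate evidence of unspliced RNA. Introns of 7995 and 2828 nt in Cacna1c and of 13476 nt in Cacna1d were called in no comparison. Their group means were 46.0% to 84.4%, 13.2% to 34.9% and 17.3% to 42.7%.

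Without Sam68, Cacna1a, Cacna1e and Cacna1g again rose from P1 to P10 and Cacna1h again fell. Cacna1a was at 13.4, 18.4 and 11.95 cRPKM in P1 knockout and 42.4, 45.9 and 39.97 at P10, and rose by 1.51 ± 0.171 log2 units (adjusted p = 0.000286, limma). Cacna1e read 9.94, 13.98 and 10.75, then 28.2, 22.4 and 33.3, and Cacna1g 11.2, 15.4 and 18.4, then 27.5, 30.3 and 28.4. They rose by 1.20 ± 0.240 and 0.92 ± 0.213 (adjusted p = 0.00853 and 0.0178, limma). Cacna1h read 6.51, 6.34 and 9.26, then 1.36, 1.49 and 1.26, and fell by 1.80 ± 0.299 (adjusted p = 0.00291, limma). These 4 of 8 genes, where 10.2% of genes passed (5.58% higher and 4.59% lower), are the same 4 as in wild type, and none of the 4 overlapped between ages. Cacna1g lost its call without knockout P1 library 13 (adjusted p = 0.0545) or P10 library 11 (0.0605), and with only these 6 libraries fitted, Cacna1a alone of the 8 was called, with 246 of all genes beside 1430. By junction reads 6 of 8 genes were called where 32.2% of genes were.

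In splicing, 5 of 73 events rose and 3 fell between knockout P1 and P10, where 0.853% of all events were called (0.442% higher and 0.411% lower). The Cacna1g 54 nt exon went from 72.4%, 71.5% and 77.4% to 30.5%, 33.8% and 33.5%, a fall of 41.2 points beside 51.5 in wild type (adjusted p = 0.000965 and 0.000812, limma). The Cacna1g extension rose by 50.2 points beside 55.2, the Cacna1a upstream 97 nt exon by 39.7 beside 38.6 and the Cacna1a 36 nt exon by 33.8 beside 44.7, all called in both genotypes. The Cacna1a downstream 97 nt exon fell by 27.5 points in the knockout (adjusted p = 0.00583, limma), and the 2282 nt intron by 34.3 (0.0471, limma). The intron call was lost without any 1 of the 6 libraries but P10 library 12 (0.0754 to 0.198). The Cacna1e 57 nt exon went from 12.2%, 21.7% and 23.5% to 67.9%, 70.3% and 41.8%, and the Cacna1d downstream 104 nt exon from 9.07%, 8.0% and 18.6% to 52.1%, 56.5% and 38.3%. They rose by 40.9 and 37.1 points (adjusted p = 0.022 and 0.0337, limma), and both calls were lost without P1 library 13 or 14 or P10 library 10 or 11 (0.0504 to 0.141). Neither difference between the genotypes was called when it was tested itself (7.06 and 6.51 points, adjusted p = 1 for both, limma). The Cacna1g 69 nt exon (-22.9 points, adjusted p = 0.0868), the Cacna1e 129 nt exon (-28.1, 0.0586) and the Cacna1d 60 nt exon (9.63, 0.0561, limma) missed the threshold in the knockout. The count of 8 became 5 without knockout P1 library 13, P10 library 10 or P10 library 11, and 3 with only these 6 libraries in the fit. The matching counts over all genes were 180 to 202 and 119 events, beside 332.

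At matched age, no member gene was called between knockout and wild type. At P1, 0 of 8 were called where 0.0356% of 14063 genes passed, and none had an unadjusted p below 0.05. The largest difference was that of Cacna1i, -0.86 ± 0.501 log2 units with a 95% interval of -1.95 to 0.23 (adjusted p = 0.735, limma), and Cacna1a differed by -0.40 ± 0.192 (-0.82 to 0.015). Cacna1i read 1.78, 1.41 and 0 cRPKM in knockout against 2.26 and 2.60, and without knockout P1 library 15, the shallowest, its difference was -0.40 (adjusted p = 0.899, limma). At P10, 0 of 8 were called where 0.00711% passed, and 2 members had an unadjusted p below 0.05. These were Cacna1e, at 28.2, 22.4 and 33.3 cRPKM in knockout against 44.4 and 41.6 in wild type, and Cacna1b, at 12.96, 10.5 and 18.1 against 22.8 and 17.7. Cacna1e differed by -0.62 ± 0.269 (95% interval -1.21 to -0.04) and Cacna1b by -0.53 ± 0.232 (-1.04 to -0.03), both with adjusted p = 0.884 in limma. Junction reads called 0 of 8 genes at P1 (0.0265% of genes called) and at P10 (0.0176%). At P10 they gave -0.95 ± 0.312 for Cacna1e and -0.14 ± 0.137 for Cacna1b (adjusted p = 0.231 and 0.655, limma). For Cacna1i they gave -0.70 ± 0.265 at P1 and at P10 (adjusted p = 0.466 and 0.251, limma). All its P1 knockout libraries lay below both wild-type ones by this measure, and at P10 the genotypes overlapped. Cacna1c and Cacna1d differed by -0.59 ± 0.224 and -0.40 ± 0.182 at P10 (adjusted p = 0.25 and 0.311, limma). By junction reads the 95% intervals of Cacna1i at both ages, and of Cacna1c, Cacna1d and Cacna1e at P10, excluded 0. In cRPKM, the P10 95% intervals of Cacna1b, Cacna1c (-1.26 to 0.31), Cacna1e, Cacna1h (-0.26 to 1.20) and Cacna1i (-1.28 to 0.90) include a 2-fold difference.

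**Figure D4:**
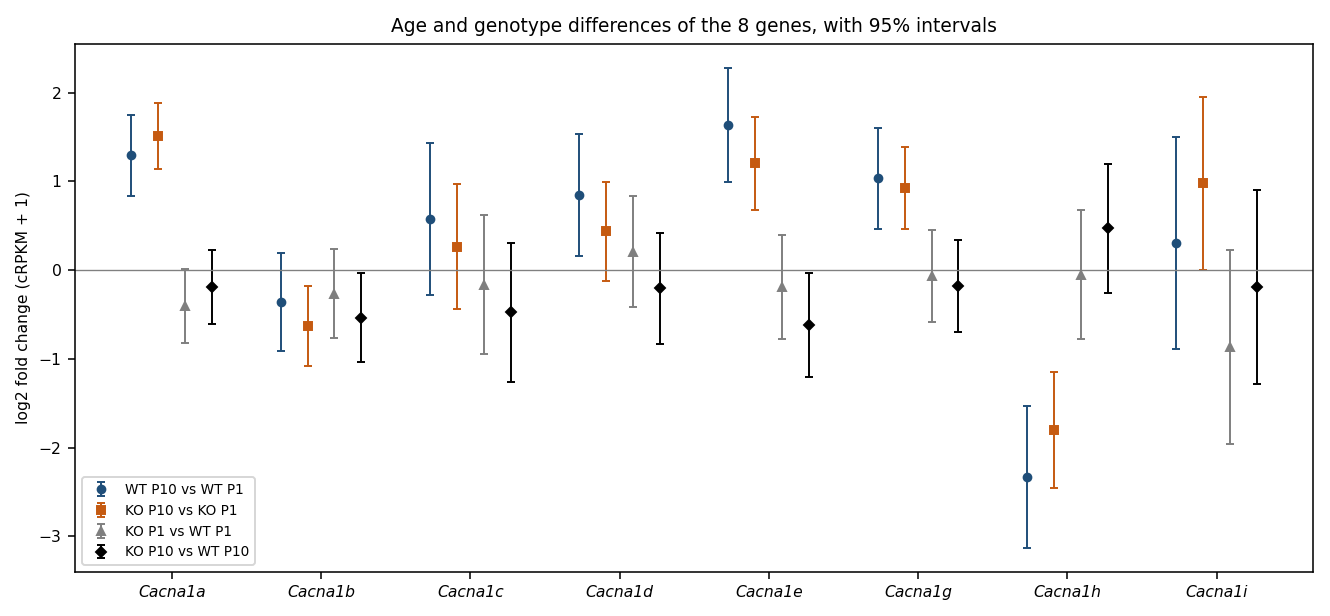
Log2 fold change on the cRPKM + 1 scale (vertical axis) of each alpha1 gene (horizontal axis) for 2 age comparisons and 2 genotype comparisons; points are estimates and bars 95% intervals from limma. The age changes of Cacna1a, Cacna1e, Cacna1g and Cacna1h stand clear of 0 in both genotypes, and the genotype estimates lie between -0.86 and 0.47. The P10 genotype intervals of Cacna1b (-1.04 to -0.03) and Cacna1e (-1.21 to -0.04) also exclude 0, and neither was called.

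The difference between the knockout effects at P10 and P1 was called for 0 of 8 genes, where 0.0142% of genes passed, and for 0 of 73 events, where 0% of events were called. Among the members, no gene and 3 of the events reached 0.05 before adjustment. Of the auxiliary, partner and regulator lists, the only gene called in either genotype comparison was Khdrbs1 itself. Khdrbs2, a close relative of Sam68, read 31.5 to 39.9 cRPKM in P1 knockout against 13.8 and 14.2 in wild type, without overlap, and was not called (1.24 ± 0.277 log2 units, adjusted p = 0.536, limma). At P10 Khdrbs2 read 16.4, 25.2 and 15.2 in knockout against 6.46 and 10.01 in wild type, also without overlap and not called.

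No splicing event of the family was called between genotypes either. At P1, limma called 0 of 76 tested member events where 0.0239% of all events were called, and 8 members were under 0.05 before adjustment. At P10 it called 0 of 75 where 0.0331% were called, and 2 members were under 0.05 before adjustment. The median absolute difference was 2.89 points at P1 and 3.04 at P10 for the member events, against 2.72 and 3.10 over all events. Differences of 10 points or more were seen in 5 of 77 entries at P1 and 5 of 76 at P10, 6.49% and 6.58%, beside 8.99% and 10.9% of all entries.

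The Cacna1a 36 nt exon was at 19.3%, 15.6% and 23.02% in P1 knockout against 10.4% and 13.2%, above both wild-type libraries, and at 50.9%, 55.6% and 52.9% against 56.5% and 56.6% at P10, below both. The differences were 7.54 and -3.41 points (95% interval of the log2 odds 0.21 to 1.42 and -0.81 to 0.41, adjusted p = 0.985 and 1, limma), and their own difference of -10.95 points was not called (adjusted p = 1, limma). The Cacna1g 54 nt exon at P1 was at 72.4%, 71.5% and 77.4% against 86.6% and 78.3%, a difference of -8.69 points (-1.525 to -0.005, adjusted p = 1, limma), and differed by 1.67 points at P10. The Cacna1a upstream 97 nt exon differed by -2.46 and -1.32 points, the Cacna1g extension by 3.55 and -1.46, and the Cacna1d 60 nt exon by -1.17 and -2.58. The 2 largest differences were in introns: -29.4 points for the 1785 nt intron of Cacna1a at P1, on 20.3 to 34.8 reads per library, and -23.3 points for the 6564 nt intron of Cacna1b at P10, on 33 to 64 reads (adjusted p = 0.985 and 1, limma).

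**Figure D5:**
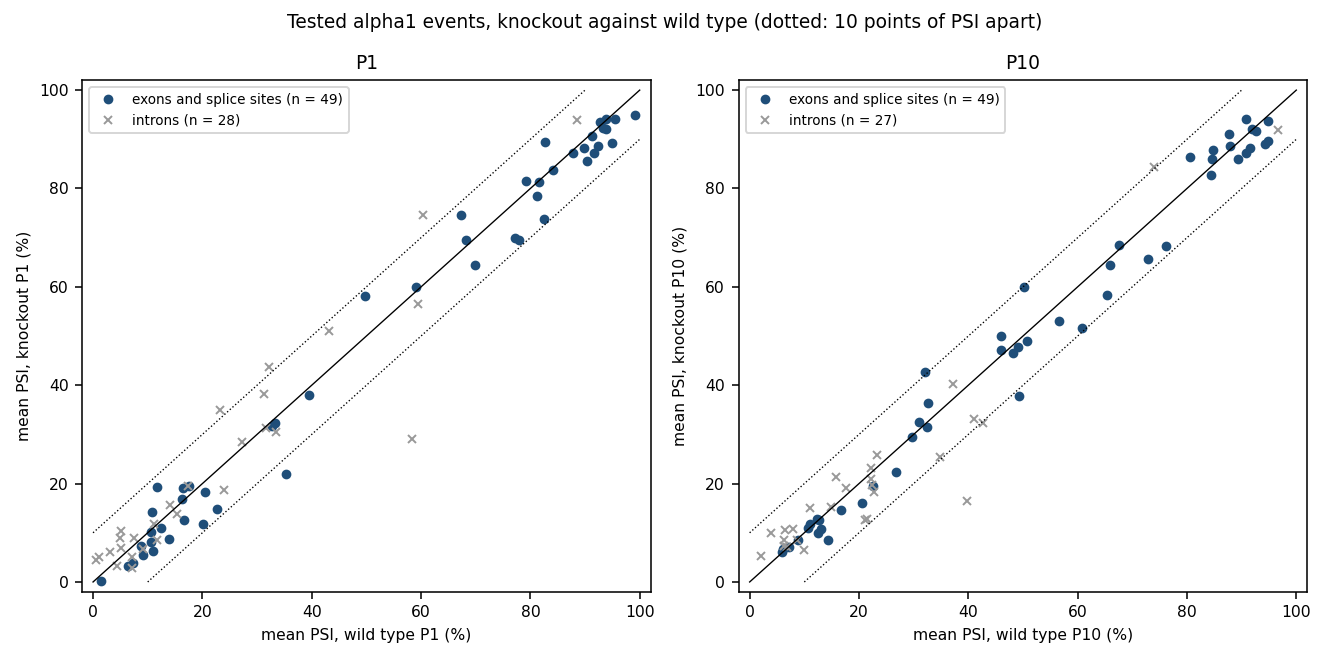
Mean PSI of each tested alpha1 event in knockout (vertical axis, %) against wild type (horizontal axis, %) at P1 (left) and P10 (right); filled points are exons and splice sites, crosses introns, the line marks equal values and the dotted lines 10 points apart. Of 77 events at P1 and 76 at P10, 5 at each age lie 10 points or more apart, and none was called.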

How the data were processed

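The authors deposited cRPKM, an RPKM corrected for mappable length, and for splicing the authors deposited PSI as a percent beside a field with the reads for and against inclusion. RNA was total cerebellar RNA made into stranded libraries, per the labels. Reads passed FastQC and Trimmomatic and the build is mm9, per the submitters' processing notes. Which aligner and splicing program made the tables is not given in the sources used here.

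Expression was tested on log2(cRPKM + 1) for the 14063 genes whose mean reached 1 cRPKM in any group. Events were tested on log2 odds of inclusion with 0.5 reads added to each side. They needed 10 reads per library in 2 libraries of each compared group and a mean PSI of 5 to 95. Both used limma 3.58.1 in R 4.3.3, with 1 fit of 5 groups (8 residual degrees of freedom) and Benjamini-Hochberg adjustment over all features. The prior variance followed mean expression, or mean log2 reads for events. That last form was chosen after results under another form were seen. Calls needed adjusted p below 0.05 and, for events, 10 points of PSI. Groups of alternative sites counted once, and 27281 entries adding no length were left out where their group had another entry. Of deposited PSI values with 10 reads or more, 100.0% lay within 1 point of the value computed from the reads. Both fits were tested on simulated data.

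The members and lists were chosen with earlier results of these data known. Named are all 8 genes, the events called in any comparison, each gene's event with the smallest p, events whose group means span 20 points or more, a few called genes per list, and the 3 most alike genes. The Cacna1b upstream and Cacna1e downstream 97 nt exons and Khdrbs2 were named after their values were seen.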

Additional observations from a re-analysis of the deposited data

How the results depend on the processing

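When the fit held just the groups being compared, 0 of 8 genes were called between wild-type P1 and P10 and 1 between knockout P1 and P10, and 2 and 3 events, beside 4, 4, 5 and 8 with all groups. Over all genes these counts were 0, 246, 62 and 119, beside 569, 1430, 238 and 332. Junction reads raised the genes called between P10 and P30 from 2 to 7, a mean PSI limit of 1 to 99 lowered the events called between knockout ages from 8 to 4, and a prior following the counting variance raised those between wild-type P1 and P10 from 5 to 8. A prior following the mean log2 odds gave 4, 13, 18 and 7 events for P1 to P10, P10 to P30, P1 to P30 and the knockout ages, beside 5, 14, 18 and 8. Both priors were added after seeing the data, as were the fits of Cacna1i without each P1 library (-1.14 to -0.40, none called). Leaving out 1 library gave 1 to 3 genes between wild-type P1 and P10, 0 to 2 between P10 and P30, 4 to 5 between P1 and P30 and 3 to 5 between knockout ages. It gave 2 to 5, 8 to 17, 13 to 19 and 5 to 9 events for the same comparisons. The genotype comparisons and their difference gave 0 members under every alternative and every library left out. No called gene or event changed direction. Where 1 library was left in an arm, it was assumed to vary like the other groups. All 15 gene calls held under quantile normalization and in junction reads, and 118 of 150 repeats of gene calls and 380 of 453 of event calls kept their call. The causes of the losses were not tested, beyond that these fits hold fewer libraries. No paired analysis was possible because no library number occurs in more than 1 group. In the shallowest library, levels near 1 cRPKM rest on about 1 read.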
